A study of Mus musculus with 6 samples.

Results

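The genes described here are 10 regulators, many of which cells switch on early after a signal. They are the zinc finger factors Egr1, Egr2 and Egr3, the Krüppel-like factors Klf2, Klf4, Klf6 and Klf7, the growth regulator Myc, the orphan nuclear receptor Nr4a1 and the survival factor Ier3. They were picked by symbol from a table of 23282 symbols, with the transcript of highest mean taken for each symbol. All 10 were in the table, and 6 of them reached the mean of 10 reads per library required for testing (Egr1, Egr2, Klf4, Klf6, Myc and Ier3), among 7995 genes that did. Klf7, Nr4a1, Klf2 and Egr3 had means of 6.67, 5.83, 3.67 and 0.67 reads and are given as reads.

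Many of these genes are immediate early genes, whose promoters are loaded with factors that only need activation by kinases, so their RNA can appear without new protein synthesis. Egr and Krüppel-like factors bind GC-rich DNA through zinc fingers. Myc pairs with Max and drives genes of growth and nucleotide and ribosome production, and Nr4a receptors act without a known need for ligand. In macrophages, Toll-like receptor signals reach these genes through MAP kinases, serum response factor with its ternary complex partners, and NF-kB. Egr2 and Klf4 are also linked to alternative macrophage activation, and Nr4a1 and Klf2 to restraint of inflammation.

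Poly(A) RNA came from peritoneal macrophages elicited with thioglycollate in female C57BL/6 mice. The 6 libraries were siSmyd5 with KLA, siSmyd5 with vehicle, siPhf2 with KLA, siPhf2 with vehicle, siCtl (control siRNA) with KLA and siCtl with vehicle. KLA is Kdo2-lipid A, the part of bacterial lipopolysaccharide that activates the receptor TLR4, given at 100 ng per ml for 4 hours after 48 hours of siRNA. There was 1 library per group, siRNA lowers a transcript without removing the gene, and how many animals were pooled is not given in the sources used here.

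The siSmyd5 and siCtl libraries held 919329 to 1429520 reads, and the siPhf2 libraries 420141 (KLA) and 577055 (vehicle). Rn45s, the precursor of ribosomal RNA, made up 71.6% and 66.7% of these, leaving 119136 and 192421. The tag totals printed on the siPhf2 and siCtl columns turned the values into whole reads only when exchanged between the 2 arms (100% of values, against at most 2.43% with a column's own total), so either the names or the totals of these columns were switched. The values were kept under the printed names, and results that turn with an exchange are marked. Levels below are CPM, reads scaled to a common library size by trimmed means (TMM). Smyd5 stood at 14.4 and 6.04 CPM in the siSmyd5 KLA and vehicle libraries, against 13.1 and 18.4 CPM in the siCtl libraries. It was thus lower under vehicle and not under KLA (20, 9, 29 and 44 reads, averaged log2 fold −0.64, edgeR adjusted p = 0.384). With the names exchanged, its control would be the KLA and vehicle libraries labelled siPhf2, where Smyd5 stood at 0 and 12.4 CPM. Those levels rest on 0 and 3 reads, too few to judge the knockdown. Phf2 stood at 58.6 and 120 CPM in the libraries labelled siPhf2, on 8 and 29 reads, against 54.1 and 47.2 CPM in those labelled siCtl (log2 fold 0.90, adjusted p = 0.098). That direction goes against the label, and an exchange of the siCtl and siPhf2 names would turn it round. Every direction given below for siPhf2 rests on the printed label, which the targeted gene goes against. Of 8 macrophage markers 6 or 7 were detected in every library, summing to 3540 to 5160 CPM, with Cd163 at 0 throughout. Fibroblast and mesothelial markers, 6 or 7 of 7 detected, summed to 322 to 854 CPM, and all other marker lists to at most 25.5 CPM except the endothelial list, at 86.6 to 91.4 CPM in the siSmyd5 and siCtl libraries and 234 and 327 CPM in the siPhf2 libraries, where Cdh5, Pecam1, Tek and Tie1 were at 0.

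Levels differed widely among the regulators. Per kilobase of listed transcript length, Klf6 was highest in 5 of 6 libraries, at 75.0 and 44.1 CPM per kb in the siSmyd5 KLA and vehicle libraries, 95.7 and 47.1 in the siPhf2 libraries and 66.1 and 38.5 in the siCtl libraries. In the siPhf2 KLA library Ier3 stood at 101 CPM per kb on 15 reads, a ratio to Klf6 of 1.06 (exact 95% interval 0.554 to 1.9), so their order there was not resolved. In the siCtl vehicle library the order ran Klf6, Ier3 (21.1), Egr2 (13.0), Myc (11.3), Klf4 (10.2), Egr1 (6.12), Klf7 (3.14), Nr4a1 (2.2), Klf2 (2.07) and Egr3 (0.295 CPM per kb). The counting intervals did not separate Egr2 from Myc, Myc from Klf4, or any neighbours from Egr1 down. In the siCtl KLA library Egr1 (45.1 CPM per kb) had moved to the second place, beside Ier3 (43.1; ratio 1.05, 0.835 to 1.32). All intervals cover counting error only, since PCR copies were not marked.

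**Figure D1:**
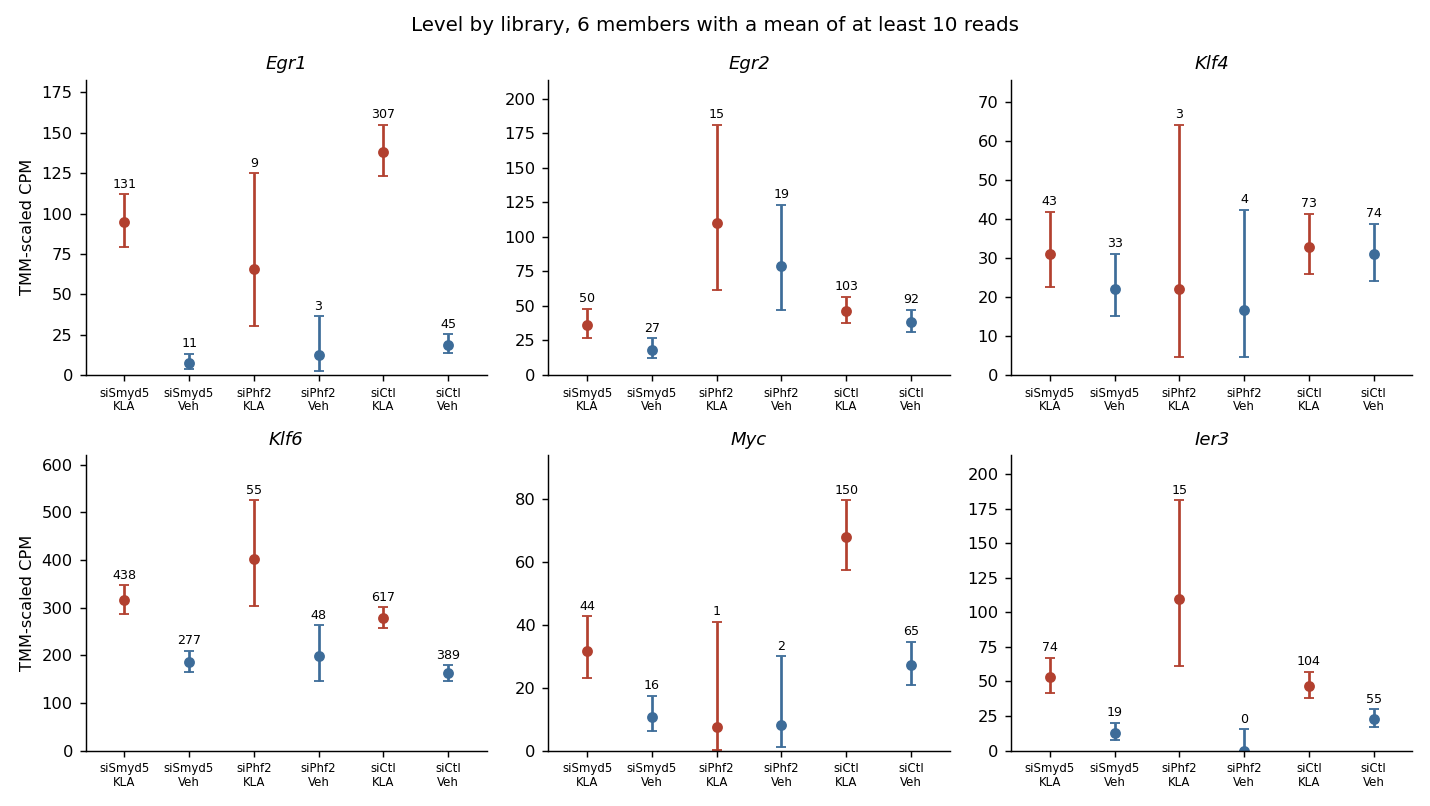
TMM-scaled CPM (y axes, linear from 0) of the 6 members tested, in each of the 6 libraries (x axes). Points are single libraries, red with KLA and blue with vehicle, bars are exact Poisson 95% intervals and the number above each is its reads; Egr1 was higher in the KLA library of each arm, while Myc was highest in the siCtl KLA library.

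What KLA did over the 3 siRNA arms was asked with an additive fit of siRNA and agent. Of the 6 genes tested, 4 rose with KLA (Egr1, Ier3, Myc and Klf6) and 0 fell, and Egr2 and Klf4 did not pass. Over all 7995 genes 11.1% rose and 4.57% fell. The median log2 fold of the 6 was 1.09, against −0.03 over all genes tested.

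Arm by arm, a gene was called by size when its log2 ratio was at least 1 and its counting interval left out equality. In the siSmyd5 arm 3 of 6 were higher (Egr1, Myc, Ier3) and 0 lower, where 8.72% of all genes were higher and 3.5% lower. In the siPhf2 arm 2 of 6 were higher (Egr1, Ier3) and 0 lower, where 8.24% were higher and 6.74% lower. In the siCtl arm 3 of 6 were higher (Egr1, Myc, Ier3) and 0 lower, where 7.17% were higher and 2.68% lower. Ier3 lay at the size bound in the siCtl arm, at a log2 ratio of 1. It was not called with RLE size factors (0.94), totals without Rn45s (0.82) or 5 reads added (0.97). Klf6 was the third called in the siPhf2 arm with RLE size factors, 0.5 reads added or a correction for transcript length.

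Egr1 (NM_007913), which binds GC-rich promoters and is a classic target of ERK signalling, changed most. It had 131, 9 and 307 reads in the siSmyd5, siPhf2 and siCtl KLA libraries, against 11, 3 and 45 in the vehicle libraries of the same arms. On the CPM scale these are 94.5, 65.9 and 138 with KLA, against 7.38, 12.4 and 18.8 with vehicle, so every KLA library lay above every vehicle library. The averaged log2 fold was 3.08 (standard error 0.24; adjusted p = 1.31e-08 by the quasi-likelihood test of edgeR, Benjamini-Hochberg method). It passed in every setting tried, DESeq2 and limma included.

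Ier3 (NM_133662, mm9 chr17:35958658-35959856), an inducible inhibitor of cell death, had 74, 15 and 104 reads in the siSmyd5, siPhf2 and siCtl KLA libraries, against 19, 0 and 55 in the vehicle libraries. Scaled, it stood at 53.4, 110 and 46.9 CPM with KLA, against 12.8, 0 and 23.0 CPM with vehicle, and the KLA and vehicle libraries did not overlap. The averaged log2 fold was 1.63 (standard error 0.33, adjusted p = 0.00124). Within arms it was 4.19-fold higher with KLA (2.5 to 7.34) in siSmyd5, with an exact lower 95% limit of 6.35-fold in siPhf2 (15 reads against 0) and 2.04-fold (1.46 to 2.89) in siCtl. The averaged log2 fold was 2.73 without the siCtl vehicle library and 2.74 without the siCtl KLA library. It also passed with DESeq2 (adjusted p = 0.0129) and limma-voom (0.0347), and not with limma on log2 values (0.113).

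Myc (NM_010849, mm9 chr15:61816896-61821916) was the third to rise. It had 44, 1 and 150 reads in the siSmyd5, siPhf2 and siCtl KLA libraries, against 16, 2 and 65 in the vehicle libraries. The rise was seen in the siSmyd5 arm (2.96-fold, 1.64 to 5.61) and the siCtl arm (2.49-fold, 1.85 to 3.39), while 1 read against 2 in the siPhf2 arm gave no direction (0.885, 0.015 to 17.0). The averaged log2 fold was 1.35 (standard error 0.25, adjusted p = 0.000596). Myc has 4 transcripts in the table, which share nearly all reads.

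Klf6 (NM_011803, mm9 chr13:5860735-5869639), a factor of the Sp1-like family, gave the smallest but the most even rise. It had 438, 55 and 617 reads with KLA in the siSmyd5, siPhf2 and siCtl arms, against 277, 48 and 389 with vehicle. The log2 ratios were 0.76, 0.98 and 0.77 in these arms, with intervals of the ratio of 1.46 to 1.98, 1.35 to 3.05 and 1.51 to 1.95, all above 1, and the averaged log2 fold was 0.83 (standard error 0.19, adjusted p = 0.00387). Klf6 and Myc were not called when any of 4 libraries was left out: with siSmyd5 KLA, siSmyd5 vehicle, siCtl KLA and siCtl vehicle left out in turn, adjusted p was 0.238, 0.263, 0.182 and 0.186 for Klf6 and 0.404, 0.324, 0.456 and 0.329 for Myc. Their log2 folds then stayed at 0.85 to 0.89 and 1.15 to 1.34. With DESeq2 the adjusted p was 0.0654 for Klf6 and 0.103 for Myc, and with limma on log2 values 0.0609 and 0.278. Without both siPhf2 libraries, an alternative added after the data were seen, the same 4 genes passed, where 14.6% of all 8737 genes tested rose and 8.31% fell.

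Egr2 (NM_010118, mm9 chr10:67000617-67004936) and Klf4 (NM_010637, mm9 chr4:55540009-55545347) did not pass. Egr2 had 50, 15 and 103 reads in the siSmyd5, siPhf2 and siCtl KLA libraries, against 27, 19 and 92 with vehicle (averaged log2 fold 0.52, standard error 0.23, adjusted p = 0.148). The siSmyd5 arm alone had an interval above 1 (1.99-fold, lower limit 1.22), against 1.4 (0.661 to 2.9) in siPhf2 and 1.21 (0.905 to 1.62) in siCtl, and the difference between arms was not tested. Klf4 had 43, 3 and 73 reads with KLA, against 33, 4 and 74 with vehicle, a log2 fold of 0.25 (standard error 0.25, adjusted p = 0.592). The siCtl interval for Klf4 (0.761 to 1.49), which covers counting error only, lies below the 2.49-fold of Myc in the same pair of libraries.

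**Figure D2:**
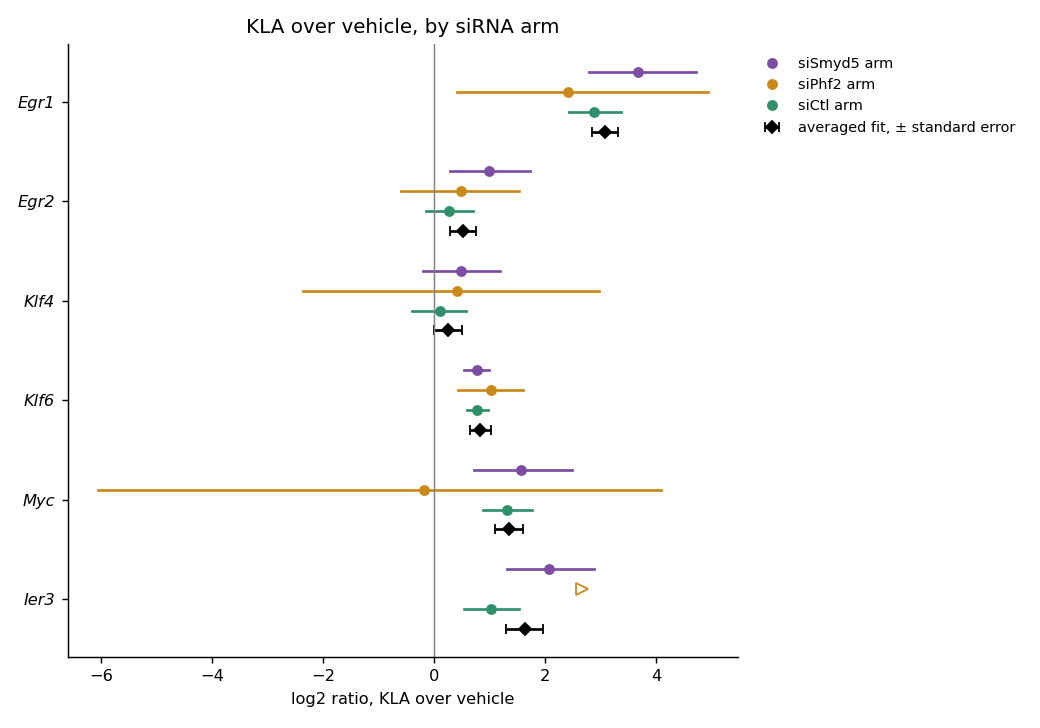
Log2 ratio of KLA over vehicle (x axis) for the 6 members tested (y axis), by siRNA arm with exact 95% counting intervals, and from the averaged edgeR fit with its standard error. The open triangle marks the lower 95% limit for Ier3 in the siPhf2 arm, where the vehicle library had 0 reads; the Egr1 intervals lie above 0 in each arm, and the siPhf2 intervals are the widest for Egr1, Egr2, Klf4, Klf6 and Myc.

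The promoters of 2 genes that rose and 2 that did not pass are shown for their motif content, as RefSeq windows of 300 bases on GRCm38.p6, a later build than the mm9 of the table. RefSeq windows were searched for 7 of the 10 genes (Egr2, Klf2, Klf4, Klf6, Klf7, Nr4a1 and Ier3), Egr2 with 5 windows, of which 1 is shown. Myc and Egr3 had no window, and Egr1 was left out of the search. Searched on both strands were the kappaB motif bound by NF-kB, the CArG box bound by serum response factor, the cyclic AMP element TGACGTCA, the Egr site GCGTGGGCG and the GC box GGGCGG. Capitals mark every match.
Ier3 (chr17:35821463-35821762, plus strand): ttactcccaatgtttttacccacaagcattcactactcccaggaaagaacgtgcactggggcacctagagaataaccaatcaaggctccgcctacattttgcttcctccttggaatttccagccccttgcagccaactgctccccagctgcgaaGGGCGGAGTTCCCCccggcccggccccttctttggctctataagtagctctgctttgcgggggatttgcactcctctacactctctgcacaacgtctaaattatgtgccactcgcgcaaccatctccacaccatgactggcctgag
Klf6 (chr13:5861239-5861538, plus strand): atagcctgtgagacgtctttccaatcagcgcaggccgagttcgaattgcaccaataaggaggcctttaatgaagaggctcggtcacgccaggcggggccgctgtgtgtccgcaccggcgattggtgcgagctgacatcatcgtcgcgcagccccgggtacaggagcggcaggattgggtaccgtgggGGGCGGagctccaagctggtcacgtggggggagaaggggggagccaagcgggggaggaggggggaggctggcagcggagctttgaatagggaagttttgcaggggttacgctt
Egr2 (chr10:67537619-67537918, plus strand): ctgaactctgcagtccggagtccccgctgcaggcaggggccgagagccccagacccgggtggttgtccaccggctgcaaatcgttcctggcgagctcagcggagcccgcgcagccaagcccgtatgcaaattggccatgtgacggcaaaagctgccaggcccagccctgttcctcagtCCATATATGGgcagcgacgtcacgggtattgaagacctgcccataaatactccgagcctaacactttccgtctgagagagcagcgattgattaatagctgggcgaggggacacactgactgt
Klf4 (chr4:55532426-55532725, minus strand): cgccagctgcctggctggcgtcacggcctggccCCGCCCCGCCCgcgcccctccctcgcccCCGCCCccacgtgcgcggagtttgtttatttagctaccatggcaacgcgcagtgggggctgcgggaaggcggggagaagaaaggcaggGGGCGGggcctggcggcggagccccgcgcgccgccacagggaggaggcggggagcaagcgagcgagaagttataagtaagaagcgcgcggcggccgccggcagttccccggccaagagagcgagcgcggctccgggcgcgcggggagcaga
The Ier3 window holds a kappaB match that begins 92 bases before the start and overlaps a GC box in its first bases. The Egr2 window holds a CArG box 72 bases before the start. Klf6 and Klf4 have GC boxes and none of the other 4 motifs in these letters. Of 32851 such windows in the RefSeq table, 4.51% hold the kappaB motif, 1.63% the CArG box, 1.79% the cyclic AMP element, 0.612% the Egr site and 35.7% the GC box. A match describes these letters only; Nr4a1, which was too low to test, also has a kappaB match, beginning 3 bases before its start.

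The other 4 regulators were near the limit of detection. Nr4a1 (NM_010444, mm9 chr15:101097277-101105225), a nuclear receptor that curbs inflammatory genes, had 4, 0 and 18 reads in the siSmyd5, siPhf2 and siCtl KLA libraries, against 0, 0 and 13 with vehicle. A count of 0 allows up to 3 reads, which is 22.0 and 12.4 CPM in the siPhf2 KLA and vehicle libraries, above the 5.42 CPM of Nr4a1 in the siCtl vehicle library. Klf7 (NM_033563, mm9 chr1:64082247-64167963) had 8, 2 and 16 reads with KLA, against 1, 3 and 10 with vehicle. Klf2 (NM_008452, mm9 chr8:74842961-74845553), known for quiescence in lymphocytes and endothelium, had 2, 1 and 7 reads with KLA, against 3, 0 and 9 with vehicle. Egr3 (NM_018781, mm9 chr14:70477252-70479964) had 3 reads in the siCtl KLA library, against 1 in the siCtl vehicle library, and 0 in the other 4. With no filter on low counts, 0 of these 4 passed for KLA in edgeR, with adjusted p of 0.32 for Klf7, 0.596 for Nr4a1, 0.837 for Egr3 and 0.989 for Klf2, and 0 had an unadjusted p under 0.05.

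**Figure D3:**
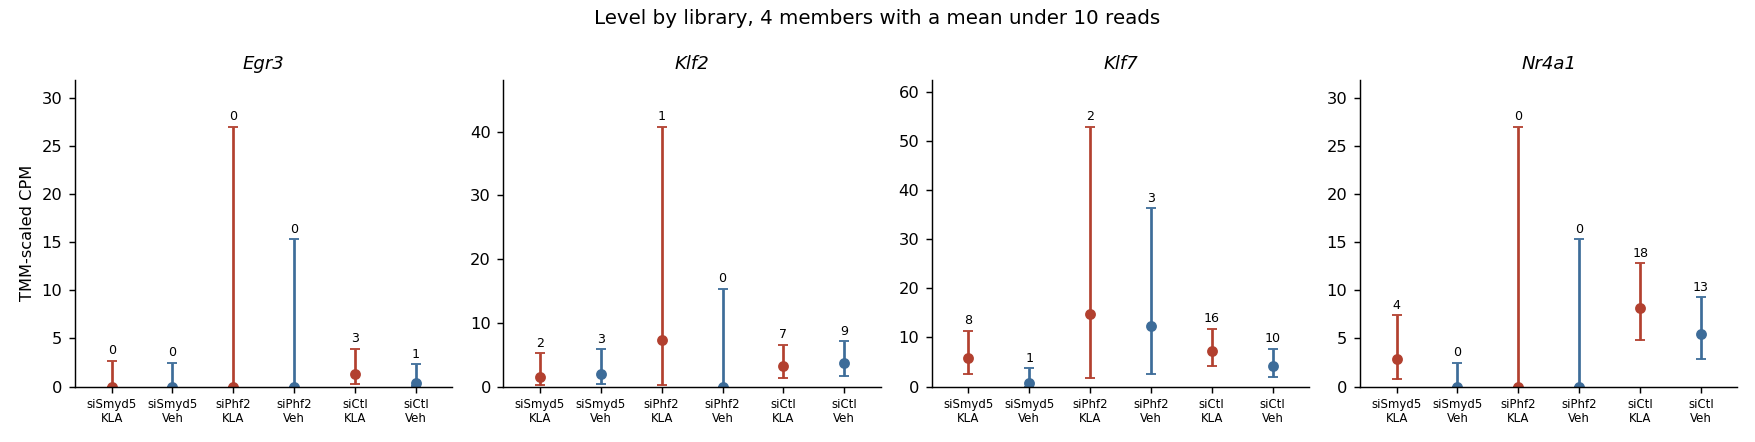
TMM-scaled CPM (y axes, linear from 0) of the 4 members with a mean under 10 reads, in each library (x axes), with exact Poisson 95% intervals and reads printed above. The intervals of the siPhf2 libraries reach 15.3 CPM or more for each gene, above the levels of the other libraries.

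Relatives of these genes rose in part, in a fit where 11.1% of all genes tested rose and 4.57% fell. Of 21 other Egr, Klf and Nr4a genes and Egr corepressors, 10 were tested, 3 rose with KLA and 0 fell (median log2 fold 0.37). Nr4a3, the third receptor of the Nr4a family, rose most, with 19, 4 and 76 reads in the siSmyd5, siPhf2 and siCtl KLA libraries, against 3, 3 and 8 with vehicle (log2 fold 2.92, adjusted p = 2.64e-05). The Egr corepressor Nab1 (0.95, adjusted p = 0.0016) and the GC-box factor Sp1 (0.77, adjusted p = 0.0266) rose as well. Among other immediate early response genes 8 of 11 tested rose and 1 fell (median 1.17), the GTPase Gem (log2 fold 3.33), the antiproliferative Btg1 (1.57), the kinase Plk2 (1.25) and the mRNA decay factor Zfp36 (1.17) with the lowest adjusted p. The kinase Sik1, a cyclic AMP target, was the 1 that fell (−1.78, adjusted p = 8.15e-05).

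Upstream and partner genes are given against the 15.7% of all genes that passed for KLA in either direction. Of 6 genes for serum response factor, its ternary complex partners and coactivators, 0 rose and 1 fell, the coactivator Mkl1, with 38, 5 and 96 reads with KLA, against 146, 42 and 376 with vehicle (log2 fold −1.88, adjusted p = 7.41e-07). Of 7 Myc partners and antagonists tested, 0 rose and 1 fell, the repressor Mnt (−1.50, adjusted p = 0.00155). The textbook Myc target list was mixed beside the rise of Myc, with 3 of 15 up, 2 down and a median of 0.02, against −0.03 over all genes tested. Those up were the cell cycle inhibitor Cdkn1a (2.30), known as a gene repressed by Myc, the polyamine enzyme Odc1 (1.14) and the nucleolar Nop58 (0.85). Those down were Gadd45a (−0.94), another gene repressed by Myc, and the kinase Cdk4 (−0.62).

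**Figure D4:**
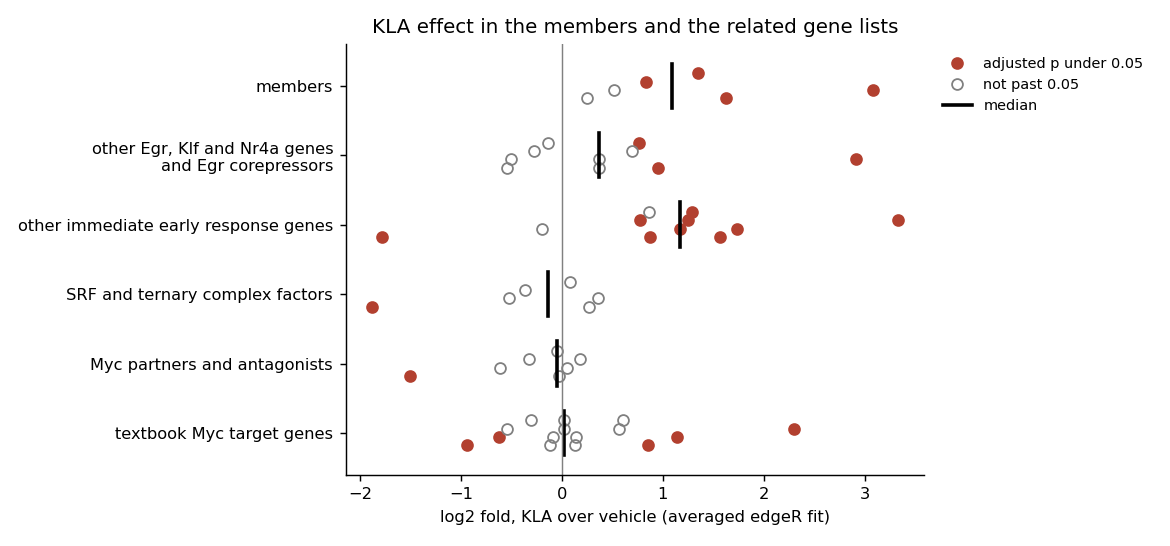
Averaged log2 fold with KLA (x axis) for each tested gene of the members and of 5 related lists (rows). Filled points passed at an adjusted p under 0.05, open points did not, and black bars are list medians, which lie at 1.09 for the members, 1.17 for other immediate early genes and near 0 for the SRF and the Myc lists.

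What differed between the siSmyd5 and siCtl arms was asked with the same fit, averaged over both agents. Myc was lower in the siSmyd5 libraries, 1 of the 6 regulators tested, and 0 were higher, where 3.58% of all genes were lower and 2.71% higher. Myc stood at 31.7 and 10.7 CPM in the siSmyd5 KLA and vehicle libraries, against 67.7 and 27.1 CPM in the siCtl libraries. The siSmyd5 KLA library thus overlapped the range of the siCtl arm, but within each agent Myc was lower, at 0.469 of control under KLA (0.327 to 0.661) and 0.396 under vehicle (0.214 to 0.692). The averaged log2 fold was −1.17 (standard error 0.26, edgeR adjusted p = 0.0165). The call is not secure: DESeq2 gave an adjusted p of 0.593, voom 0.0916 and limma on log2 values 0.787. It was at least 0.997 when any 1 of the 4 siSmyd5 and siCtl libraries was left out (siSmyd5 KLA, siSmyd5 vehicle, siCtl KLA or siCtl vehicle), at log2 folds from −1.4 to −1.04. If the siCtl and siPhf2 names are switched, the log2 fold is 1.21, on 3 reads in all in the columns then called siCtl.

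Egr1 and Egr2 were lower by size in the siSmyd5 vehicle library, by a log2 ratio of at least 1, as was Myc, and Myc was the only 1 of the 6 lower by size under KLA. With 5 reads added Egr2 was not called. By the same rule 5.42% of all genes were lower under vehicle and 3.76% under KLA, and 0 of the 6 were higher under either agent, against 2.59% and 1.81% of all genes. Egr1 stood at 0.683 of control under KLA (0.552 to 0.84) and 0.393 under vehicle (0.183 to 0.772), with an averaged log2 fold of −0.71 (adjusted p = 0.0781). Egr2 stood at 0.777 under KLA (0.542 to 1.1) and 0.472 under vehicle (0.295 to 0.732), with an averaged log2 fold of −0.67 (adjusted p = 0.113). Both passed without the siPhf2 libraries, Egr1 at −0.68 (adjusted p = 0.0092) and Egr2 at −0.69 (adjusted p = 0.0248), and Myc at −1.18 (adjusted p = 0.000487), in a fit where 12.2% of all genes fell. That fit has fewer residual degrees of freedom than the main fit, so its estimate of the spread rests on less. The direction for Egr1 hangs on the printed labels. Were the siCtl and siPhf2 labels swapped, its averaged log2 fold would turn to 0.27 (edgeR adjusted p = 0.725). Its log2 ratios would be 0.49 under KLA and −0.56 under vehicle, against libraries with 9 and 3 reads. Egr2 would stay lower, at −1.82 (adjusted p = 0.00192), and would be the only 1 of the 6 called by size under either agent.

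Ier3 stood at 1.14 of control under KLA (0.833 to 1.55) and 0.556 under vehicle (0.311 to 0.951). Whether the agents differ here was not tested. Klf6 stood at 1.14 (1.0 to 1.29) and 1.15 (0.978 to 1.34), and Klf4 at 0.942 (0.631 to 1.39) and 0.717 (0.461 to 1.1). None of the 3 passed in the averaged fit (adjusted p 0.801, 0.642 and 0.569). Under swapped labels the averaged log2 folds of Klf6 and Klf4 would turn, to −0.23 and 0.48, while that of Ier3 would keep its sign (−0.49). Nr4a1 had 4 and 0 reads in the siSmyd5 KLA and vehicle libraries, against 18 and 13 in the siCtl libraries. The upper 95% limit of its ratio was 0.528 under vehicle. Under KLA the ratio was 0.355 (0.0875 to 1.08), and with no filter on low counts its adjusted p was 0.0864. In that fit Klf7 (adjusted p = 0.658), Klf2 (0.797) and Egr3 (0.74) did not pass either. The median log2 fold of the 6 tested was −0.47, against 0.00 over all genes tested.

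**Figure D5:**
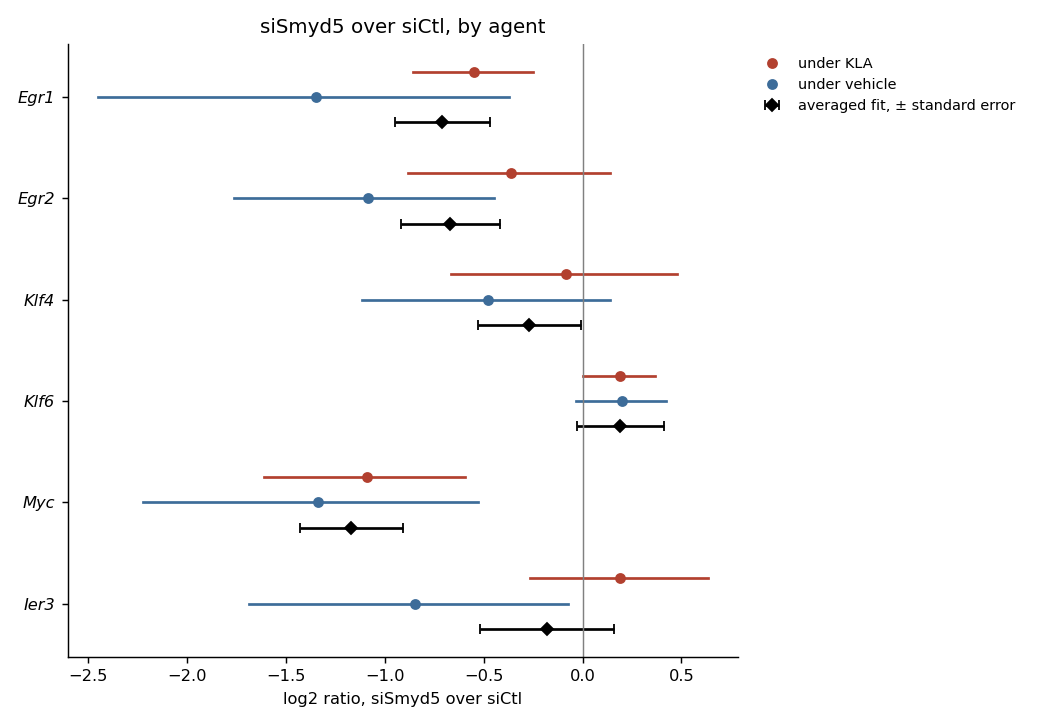
Log2 ratio of siSmyd5 over siCtl (x axis) for the 6 members tested (y axis), under KLA in red and vehicle in blue with exact 95% counting intervals, and from the averaged edgeR fit in black with its standard error. The Myc and Egr1 intervals lie below 0 under both agents, and those of Klf4 cross 0.

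The related lists held 5 genes called lower for siSmyd5 and 0 called higher. Of 7 Myc partners and antagonists 2 fell and 0 rose (median −0.68). They were the Max partner Mga (−0.98, adjusted p = 0.0165) and the factor Mlxip (−1.06, adjusted p = 0.0165). Of 6 SRF genes 1 fell, the coactivator Mkl2 (−1.23, adjusted p = 0.0106). Sp1 fell by 1.28 on the log2 scale (adjusted p = 0.0103) and was the 1 of 10 in its list to pass. The Myc target list had 1 of 15 down, the pyrimidine enzyme Cad (−1.38, adjusted p = 0.0432), and 0 up, with a median of 0.30. Of 11 other immediate early genes 0 passed. These calls were made in a fit where 6.29% of all genes passed in either direction and 23.6% had an unadjusted p under 0.05, as had 3 of the 6 regulators. Without the siPhf2 libraries 4 of 6 SRF genes, 4 of 9 Myc partners and 4 of 12 Egr, Klf and Nr4a relatives were lower and 0 of each higher, where 12.2% of all genes were lower and 11.6% higher. The other lists were mixed in that fit. Of 16 Myc targets 2 were lower and 2 higher, and of 11 other immediate early genes 2 were lower and 1 higher.

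Transcript length moved with these falls. The 5 genes are listed at 13907 bases (Mga), 8264 (Mkl2), 7812 (Sp1), 7266 (Mlxip) and 7062 (Cad), all above the upper quartile of 4381 over the genes tested. After subtracting the median log2 ratio of genes near in length, Mga stood at −0.71 under KLA and −0.02 under vehicle, against −1.30 and −0.65 before. By size, Sp1 was still called lower under vehicle (−1.18) and Cad under KLA (−1.02), while Mga, Mlxip and Mkl2 were called under neither agent. The same correction left 262 genes called by size under KLA, against 446 before, and 400 under vehicle, against 640 before. The part of length in the averaged calls was not tested.

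Values that moved with the siSmyd5 label were the fibroblast and mesothelial markers, at 639 and 591 CPM in the siSmyd5 KLA and vehicle libraries, against 854 and 797 CPM in the siCtl libraries. Macrophage markers stood at 4560 and 4520 CPM, against 3970 and 3540 CPM. In the KLA and vehicle libraries labelled siPhf2 the fibroblast and mesothelial markers summed to 322 and 505 CPM. Macrophage markers summed there to 5160 and 4840 CPM. Both directions would thus turn if the siCtl and siPhf2 names were exchanged. In such bulk RNA fewer cells of a type and less RNA per cell cannot be told apart, and the part of these markers in the falls of Myc and Egr1 was not tested. After subtracting the median log2 ratio of genes near in transcript length, Myc stood at −1.18 under KLA and −1.33 under vehicle, against −1.06 and −1.26 before. Egr1 stood at −0.53 and −1.22, against −0.55 and −1.23 before. Ier3, the shortest of the 10 at 1088 bases, moved most: it stood at −0.17 under KLA, against 0.18 before, and at −1.14 under vehicle, against −0.80 before, where it was then called lower.

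The siPhf2 arm carries little weight for these genes, with 101 and 79 reads over all 10 in the KLA and vehicle libraries, against 1398 and 753 in the siCtl libraries. In the averaged fit Egr2 was higher and Myc lower, 2 of 6, where 8.08% of all genes were higher and 4.43% lower. At an unadjusted p under 0.05 there were 3 of 6, and 28.2% of all genes. Egr2 stood at 110 and 78.6 CPM in the siPhf2 KLA and vehicle libraries, against 46.5 and 38.4 CPM in the siCtl libraries, which did not overlap (log2 fold 1.14, standard error 0.35, adjusted p = 0.0361). Myc had 1 and 2 reads, against 150 and 65 (log2 fold −2.38, standard error 0.68, adjusted p = 0.0276). With the names exchanged both signs turn, to −1.14 and 2.38. Neither passed with limma on log2 values. Egr2 had a log2 fold of 0.67 (adjusted p = 0.167) with Rn45s left out of the totals and 0.90 (adjusted p = 0.0894) with no filter on low counts, and Egr2 did not with DESeq2 (adjusted p = 0.0707), which gave none for Myc. Leaving out 1 library, Egr2 had an adjusted p of 0.164 (siSmyd5 KLA out), 0.126 (siSmyd5 vehicle out), 0.112 (siPhf2 vehicle out), 0.572 (siCtl KLA out) and 0.301 (siCtl vehicle out). Myc had 0.0745 (siSmyd5 KLA out), 0.0519 (siSmyd5 vehicle out), 0.154 at a log2 fold of −1.68 (siPhf2 KLA out), 0.267 (siCtl KLA out) and 0.184 (siCtl vehicle out). Ier3 was at 110 and 0 CPM, against 46.9 and 23.0 CPM, lower by size under vehicle and higher under KLA. By size, 2 of 6 were higher under KLA (Egr2, Ier3) and 2 lower (Egr1, Myc), where 7.72% and 7.22% of all genes were. Under vehicle 1 was lower (Ier3) and 0 higher, where 8.71% and 10.7% were. Calls under KLA hung on the scaling. Egr1 lay near the size bound there, at a log2 ratio of −1.03. It was not called with RLE size factors, 5 reads added or the length correction (−0.63). Egr2 and Ier3 were not called under KLA with totals without Rn45s.

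The other 4 regulators tested did not pass between the siPhf2 and siCtl arms in the averaged fit. The averaged log2 folds were −0.98 for Egr1 (adjusted p = 0.16), −0.75 for Klf4 (0.414), 0.42 for Klf6 (0.289) and 0.32 for Ier3 (0.775), and with Rn45s left out of the totals they were −1.44 for Egr1, which then passed (adjusted p = 0.0294), −0.05 for Klf6 and −0.15 for Ier3. Without the siPhf2 KLA library Ier3 was called lower (adjusted p = 0.0247), on 0 reads in the siPhf2 library left. With no filter on low counts the adjusted p was 0.286 for Nr4a1, 0.625 for Klf7, 0.941 for Klf2 and 0.941 for Egr3. The median of the 6 tested was −0.22, against −0.13 over all genes tested. Of 15 Myc targets 0 rose and 3 fell, the repair enzyme Apex1 (−3.59), the nucleolar protein Npm1 (−1.85) and Cdk4 (−1.42). Of 7 Myc partners 2 rose, the ubiquitin ligase Mycbp2 (1.75) and Mlxip (1.22), and 0 fell. Of 6 SRF genes 2 rose, the ternary complex factor Elk4 (1.84) and Mkl2 (1.29), and 0 fell. Of 10 Egr, Klf and Nr4a relatives 0 passed, and of 11 other immediate early genes 1 rose (Zfp36, 1.49) and 2 fell (Rgs1, −2.73, and Cyr61, −2.92). Over all genes tested 8.08% rose and 4.43% fell in this fit. Transcript length moved with part of these list calls. Apex1 (1302 bases), Rgs1 (1325), Cdk4 (1338) and Npm1 (1372), which fell, lie under the lower quartile of 1871. Mycbp2 (15148), Mkl2 and Mlxip, which rose, lie above the upper one. Zfp36 (1763) goes the other way, as it rose and lies under the lower quartile. Elk4 (3666) and Cyr61 (2023) lie between the quartiles. After the length correction Mlxip, Mkl2 and Cdk4 were called by size under neither agent, while Apex1, Rgs1, Elk4 and Zfp36 were called under both. The part of length in the averaged calls was not tested.

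Genes whose pattern lay nearest to each regulator were found by the root mean square distance between centred log2 levels over the 6 libraries, as a description of these libraries. The nearest were Mtmr7 for Egr1 (distance 0.238), Rbm47 for Egr2 (0.099), Mrps7 for Klf4 (0.074), Gmeb1 for Klf6 (0.094), Timp3 for Myc (0.321) and Oas1g for Ier3 (0.162). For the 4 low genes they were Il1r1 for Nr4a1 (0.254), Csnk1g1 for Klf7 (0.101), Slc35a2 for Klf2 (0.128) and Mmd for Egr3 (0.107), where low reads shrink the distance. Oas1g had 60, 12 and 97 reads in the siSmyd5, siPhf2 and siCtl KLA libraries, against 21, 0 and 45 with vehicle, close to the reads of Ier3 in each. No other regulator was the nearest gene of any of the 10.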

How the data were processed

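Poly(A) RNA was measured in 6 libraries, 1 per group, grouped by the sample titles. The authors deposited a signal, reads per RefSeq transcript scaled to 10000000 tags, with a total and the word cds in each column name, per the file headers. HOMER and mm9 are named per the submitters' processing notes; for the aligner, read filters, strand use and multi-mapping the entry is "not given in the sources used here", so paralogs and overlapping genes are uncertain. Whether counts cover coding sequence or whole transcripts is not settled by the header, so levels per kilobase rest on the listed transcript length.

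Whole reads were recovered by dividing each value by 10000000 over a header total (within 0.02 of a whole number). Of 29619 transcripts 2 had no symbol and were left out. Testing kept genes averaging 10 reads or more and ran with edgeR 4.0.16 (quasi-likelihood, TMM, 2-sided, Benjamini-Hochberg threshold 0.05) in R 4.3.3, siRNA and agent additive, with 2 residual degrees of freedom; the residual holds library noise and any difference in KLA response between arms. The deposited unit is not counts: the count model is the main test because whole reads were recovered, and limma 3.58.1 on log2 of CPM plus 15.4, limma-voom and DESeq2 1.42.0 are alternatives. No label names separate animals or cultures for the libraries. The p-values therefore measure the spread between these libraries, which may be technical. Fits with libraries left out have fewer residual degrees of freedom. Pairs of single libraries have no test: ratios have exact conditional Poisson 95% intervals, and a call by size needed a log2 ratio of at least 1 with 2 reads added, a mean of 10 reads and an interval without 1. A count of 0 was given a floor of 3 reads per library. Other alternatives were RLE size factors, totals without Rn45s, no filter or a mean of 50 reads, each library left out, a length correction, exchanged names and, added after the data were seen, leaving out both siPhf2 libraries. Promoters came from RefSeq (GRCm38.p6).

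All 10 members are named in every comparison, with at most 4 genes per direction of each related list by adjusted p. The members and lists were chosen with earlier results of these data known.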

Additional observations from a re-analysis of the deposited data

Results flagged for a closer look

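Ier3 went opposite ways under the 2 agents between the siPhf2 and siCtl libraries, with each counting interval excluding equality. It had 15 reads in the siPhf2 KLA library, against 104 in the siCtl KLA library (2.34-fold higher after scaling, 1.27 to 4.05), and 0 reads in the siPhf2 vehicle library, against 55 in the siCtl vehicle library (upper 95% limit of the ratio 0.688). The log2 ratios with 2 reads added, 1.17 under KLA and −3.28 under vehicle, differ by 4.45. There is 1 library on each side, and the difference was not tested. With totals without Rn45s, Ier3 was still called by size under vehicle and was not called under KLA. Both directions would turn if the siCtl and siPhf2 names were exchanged.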

How the results depend on the processing

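Egr1 rose with KLA in every setting. The members changed by KLA (4) were 2 with DESeq2, 1 with limma on log2 values, 2 with a mean of at least 50 reads (fewer genes tested) and 2 to 4 with 1 library left out. Genes changed by KLA (1256) were 613, 375, 684 and 429 to 2125 in the same settings, and 2000 without both siPhf2 libraries. For siSmyd5, genes changed (503) were 5 with DESeq2, 16 with limma-voom, 0 with limma on log2 values (469 at an unadjusted p under 0.05), 95 with a mean of at least 50, 2021 with the siCtl and siPhf2 names exchanged, 2079 without both siPhf2 libraries and 1 to 2317 with 1 library left out. The member changed (1) became 0 with DESeq2 (1 at an unadjusted p under 0.05), 0 with limma-voom (3), 0 with limma on log2 values (1), 0 with a mean of at least 50 (2), 3 without both siPhf2 libraries and 0 to 3 with 1 library left out. For siPhf2, genes changed (1000) were 488 with DESeq2, 543 with limma on log2 values, 1683 with the total without Rn45s and 215 to 1539 with 1 library left out. Members changed (2) were 0 with DESeq2 (2 at an unadjusted p under 0.05), 0 with limma on log2 values (2), 1 with a mean of at least 50, 1 with no filter and 0 to 2 with 1 library left out.

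A mean of at least 50 reads lowered genes called by size for KLA to 441 (siSmyd5 arm) and 374 (siCtl arm), and for siSmyd5 to 104 under KLA and 190 under vehicle, and for siPhf2 under vehicle to 891. Members called by size were then 1, 1 and 1 for KLA in the siSmyd5, siPhf2 and siCtl arms, 0 for siSmyd5 under KLA, 2 for siPhf2 under KLA and 0 for siPhf2 under vehicle. The length correction gave 262 and 400 genes for siSmyd5 under KLA and vehicle. Members for siPhf2 under vehicle were 2 with 0.5 reads added, with RLE size factors, with the length correction and with the total without Rn45s, which also gave 2 under KLA.

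With the siCtl and siPhf2 names exchanged, siPhf2 signs turn by construction: log2 folds were 0.98 (Egr1), −1.14 (Egr2), 0.75 (Klf4), −0.42 (Klf6), 2.38 (Myc) and −0.32 (Ier3). Log2 ratios were 1.03 (Egr1), −1.18 (Egr2), 2.7 (Myc) and −1.17 (Ier3) under KLA, and 3.28 (Ier3) under vehicle. For siSmyd5 the log2 folds became 0.27 (Egr1), 0.48 (Klf4), −0.23 (Klf6) and 1.21 (Myc). Log2 ratios of Myc were then 1.61 under KLA and 0.28 under vehicle, with 1657 and 2247 genes called by size and 1 member under vehicle. KLA called 787 genes in the siPhf2 arm and 1198 in the siCtl arm, where Myc stood at a log2 ratio of −0.07. Ier3 for siPhf2 was −0.10 with DESeq2, −0.15 with limma on log2 values, −0.41 with limma-voom, −0.15 with the total without Rn45s and −7.92 to 1.08 with 1 library left out, the lowest resting on 0 reads. For siSmyd5 it was −1.25 to 0.46. Klf6 for siPhf2 was −0.05 with the total without Rn45s. Apart from these exchanges by construction, the cause was not tested. Depth limits the siPhf2 arm most. No paired analysis was possible by replicate number because each group holds 1 library; the additive fit already compares KLA with vehicle within each arm and siRNAs within each agent.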
